A study of Piaractus mesopotamicus and Piaractus mesopotamicus x Colossoma macropomum and Colossoma macropomum with 15 samples.

Results

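The muscle miRNAs miR-1, miR-133 and miR-206 were described in small RNA sequencing of fast muscle from 3 genotypes of early juvenile fish. The genotypes were the hybrid tambacu (TC, the cross of a female tambaqui with a male pacu), pacu (PC, Piaractus mesopotamicus) and tambaqui (TQ, Colossoma macropomum), with 5 fish each. No fish was treated, all were kept under a cycle of equal light and dark, and 1 library was made per fish and sequenced for 50 cycles, giving 15 libraries. The tissue was epaxial muscle near the dorsal fin, the labels name it only as muscle, and the source of the broods is not given in the labels. Every mature sequence named miR-1, miR-133a, miR-133b, miR-133c or miR-206, on either arm, was taken. This gave 18 loci under 10 mature names, of 595 loci under 369 names in the table. A locus is 1 place of a mature sequence on 1 precursor, and where a sequence lies on more than 1 precursor, each such locus is called a copy.

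miR-1, miR-133 and miR-206 are known as myomiRs, miRNAs whose expression is largely restricted to striated muscle and is driven by myogenic transcription factors. A miRNA guides the silencing complex to mRNAs that pair with its seed, bases 2 to 8 from the 5′ end, and lowers their translation and stability. In vertebrate muscle, miR-1 and miR-206 are known to promote differentiation of myoblasts, and miR-133 is known to promote their proliferation. miR-1 and miR-133 are transcribed from shared clusters, as are miR-206 and miR-133b.

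The mature sequences are shown so that how alike they are can be seen beside the counts. They are the Danio rerio sequences of miRBase on whose precursors the study counted its reads, written in DNA letters with the seed in capitals. The first set holds the members that were counted.
dre-miR-1: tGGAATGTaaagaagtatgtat
dre-miR-206-3p: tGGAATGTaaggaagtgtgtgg
dre-miR-133c-3p: tTTGGTCCctttcaaccagcta
dre-miR-133c-5p: gCTGGTAAaacggaaccaagtc
dre-miR-133b-5p: gCTGGTCAaatggaaccaagtc

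dre-miR-1 and dre-miR-206-3p share the seed GGAATGT, which no other mature name in the table has. They differ at 4 of 22 bases, A11G, A17G, A21G and T22G, with the base of miR-1 first and positions counted from 1 at the 5′ end. The 5′ arms of miR-133b and miR-133c differ at 2 bases, C7A and T11C, with the base of miR-133b-5p first. C7A lies in the seed, so that these arms have different seeds.

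The second set holds the main arms of miR-133a and miR-133b, for which no read was counted.
dre-miR-133a-3p: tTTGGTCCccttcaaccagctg
dre-miR-133b-3p: tTTGGTCCccttcaaccagcta

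All 3 miR-133 names on the 3′ arm share the seed TTGGTCC. dre-miR-133b-3p differs from dre-miR-133a-3p by G22A alone, with the base of miR-133a-3p first, and dre-miR-133c-3p differs from dre-miR-133b-3p by C10T alone, with the base of miR-133b-3p first. The annotation placed miR-133a-3p also on the precursor of miR-133b, and miR-133b-3p also on both precursors of miR-133a, so that each of the 3 copies of either name overlaps a copy of the other.

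Of the 18 loci, 10 had a place that overlapped another annotated mature sequence, and all 10 were at 0 in all 15 fish. They were the 3 copies of dre-miR-133a-3p, the 3 copies of dre-miR-133b-3p, and both copies of the 5′ arms dre-miR-133a-2-5p and dre-miR-133a-5p, which overlap each other. The same held over the table. Of 171 loci whose place overlapped another, 1 had counts (0.585%), the miR-153c-3p locus with 1 count in all fish, against 271 of 424 loci without overlap (63.9%). The part of the overlap in these zeros was not tested read by read, and the 0 at the loci of miR-133a-3p and miR-133b-3p is not given here as a limit on their levels. dre-miR-206-5p, the other arm of the first miR-206 precursor, overlapped no other locus and was also at 0 in all 15 fish. A count of 0 there allows up to 0.463 to 1.33 CPM in the single fish (CPM are counts scaled to 1000000 counts of a library), a limit for counting error alone.

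The other 7 loci were counted in each of the 15 fish. They were both copies of dre-miR-1 with 44351 and 45509 counts over all fish, both copies of dre-miR-206-3p with 9671 and 6507, and dre-miR-133c-5p with 187, dre-miR-133c-3p with 124 and dre-miR-133b-5p with 115. The 5 loci of miR-1, miR-206-3p and miR-133c-5p had a normalized count of 10 or more on average, the filter used, and were tested. miR-133c-3p and miR-133b-5p did not pass and are described only.

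Total counts were 2422820 to 5669084 per fish, and the spread between fish was a biological coefficient of variation of 0.279 over the 199 loci tested. Among marker lists, the 4 names of the endothelial list (8 loci) were at 0 in every fish. Whether their places overlap others is not given here, and zeros of marker names are not given as limits on their levels. TC replicate 8 had the highest summed level of the erythroid list in TC (14585 CPM, range in TC 3754 to 14585, in PC 2403 to 3905, in TQ 1287 to 9215). The same fish had the lowest level in TC of the epidermis list (26.2 CPM) and the nervous tissue list (22.2 CPM). It was also lowest in TC for the list of other muscle-linked miRNAs (27117 CPM, range in PC 30985 to 37736, in TQ 30797 to 35914). All lists and members were measured in whole pieces of muscle, where fewer cells of a type and less RNA per cell cannot be told apart.

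miR-1 was counted in every fish but was not among the most abundant miRNAs by the counts of a single copy. By the mean level of the highest copy, it ranked 42nd of 214 names with counts, at 752 CPM, and miR-206-3p ranked 70th, at 171 CPM. Both copies of miR-1 together averaged 1495 ± 352 CPM and took 0.149% ± 0.0317 of all counts (SD, n = 15). How reads that fit several copies were handled is not given in the sources used here, so ranks of names with copies are uncertain. A summed level can hold the same read at both copies. The counted miR-133 arms ranked 148th (miR-133c-5p, 3.04 CPM), 154th (miR-133c-3p, 1.99 CPM) and 155th (miR-133b-5p, 1.90 CPM). The first ranks were held by miR-199-5p (150702 CPM), miR-100-5p (121269 CPM) and miR-99 (51950 CPM). Levels of different miRNAs also carry differences in ligation during library preparation, which were not tested here.

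**Figure D1:**
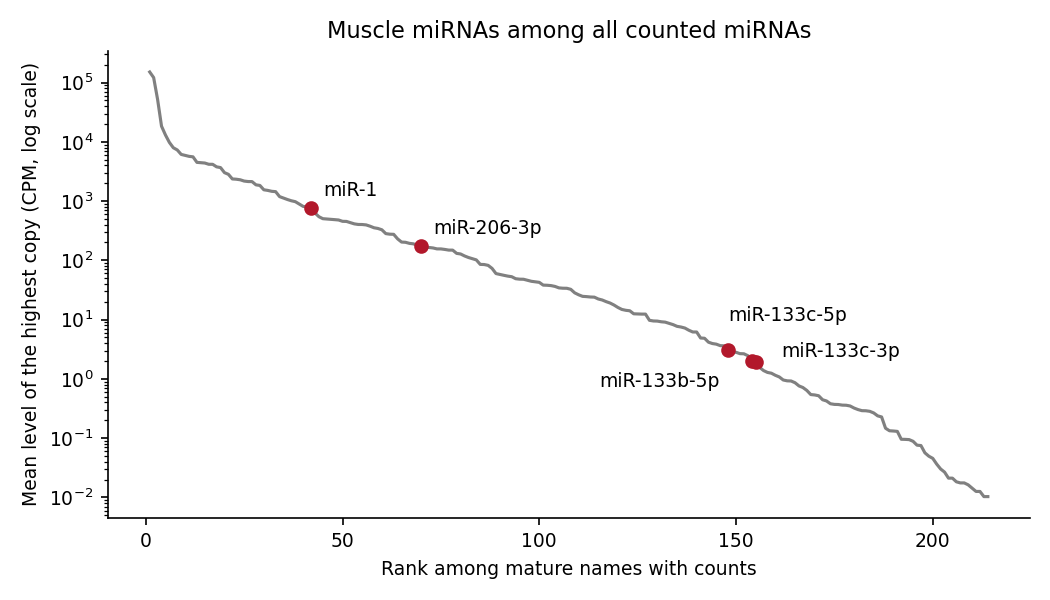
Mean level of the highest copy of each mature name over 15 fish (CPM, log scale) against its rank among the 214 names with counts, with the 5 counted muscle miRNAs marked in red. miR-1 stands at rank 42 and miR-206-3p at rank 70, and the 3 counted miR-133 arms lie between ranks 148 and 155.

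miR-1, the most abundant of the members that were counted, had higher levels in TC than in TQ. With both copies summed, its level in TC was 1350, 1993, 1769, 2201 and 1923 CPM in replicates 3, 4, 5, 6 and 8. In PC it was 1687, 1227, 1536, 1474 and 1275 CPM in replicates 3, 4, 5, 8 and 10. In TQ it was 1253, 1264, 1254, 1322 and 901 CPM in replicates 1, 2, 3, 6 and 8. All 5 TC fish lay above all 5 TQ fish, 4 of 5 TC fish lay above all PC fish, and the PC and TQ fish overlapped. The share of all tested loci at which genotypes separate in this way is not given here, for miR-1 or for the members and lists below. The means were 1847 ± 318 CPM in TC, 1440 ± 190 CPM in PC and 1199 ± 169 CPM in TQ (SD, n = 5 each).

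The differences of miR-1 in TC vs. TQ passed the limit on the adjusted p but not the minimum log2FC of 0.75, so that neither copy was called. The first copy averaged 917 ± 139 CPM in TC and 595 ± 89.8 CPM in TQ (SD, n = 5 each), a log2FC of 0.62 (SE 0.15, edgeR quasi-likelihood test, adjusted p = 0.0104). The second copy averaged 930 ± 181 CPM in TC and 604 ± 81.6 CPM in TQ, a log2FC of 0.62 (SE 0.15, adjusted p = 0.0111). The copies were not independent measurements, since a read of the shared mature sequence fits both. The limit on the adjusted p was passed by 53 of 199 loci in this contrast (26.6%), and the median log2FC over all 199 loci was 0.03. The limit was not passed with total counts as library sizes (log2FC 0.27 for both copies, adjusted p = 0.348 and 0.407) or with size-filtered reads (log2FC 0.58 for both, adjusted p = 0.348 and 0.362).

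miR-1 in PC lay between the other genotypes, and its differences in the remaining contrasts between genotypes did not pass the test. In TC vs. PC the log2FC was 0.36 for both copies (SE 0.15 each, edgeR, adjusted p = 0.111 and 0.117). In PC vs. TQ it was 0.27 for the first copy (SE 0.15, adjusted p = 0.197) and 0.26 for the second copy (SE 0.15, adjusted p = 0.227). Against the mean of the parental log2 levels, both copies in TC were higher by a log2FC of 0.49 (SE 0.13 each, adjusted p = 0.0175 and 0.0212), past the limit on p and below the minimum. The limit on the adjusted p was passed by 18 of 199 loci in this contrast (9.05%). For miR-1 this limit was not passed with total counts as library sizes (log2FC 0.26 and 0.25, adjusted p = 0.356 and 0.448), with size-filtered reads (log2FC 0.42 and 0.40, adjusted p = 0.563 and 0.583) or without TC replicate 6 (log2FC 0.42 for both, adjusted p = 0.0679 for both).

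miR-206-3p, the myomiR known for its rise in differentiating and regenerating muscle, varied most among the TC fish. With both copies summed, its level in TC was 192, 222, 227, 435 and 805 CPM in replicates 3, 4, 5, 6 and 8. In PC it was 266, 214, 270, 382 and 334 CPM in replicates 3, 4, 5, 8 and 10. In TQ it was 172, 209, 191, 205 and 206.2 CPM in replicates 1, 2, 3, 6 and 8. TC replicates 6 and 8 were the highest of all fish, the remaining 3 TC fish lay within or near the range of TQ, and all 5 PC fish lay above all 5 TQ fish. The coefficient of variation was 68.7% in TC, 22.3% in PC and 7.94% in TQ. A test of these spreads against each other was not made.

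**Figure D2:**
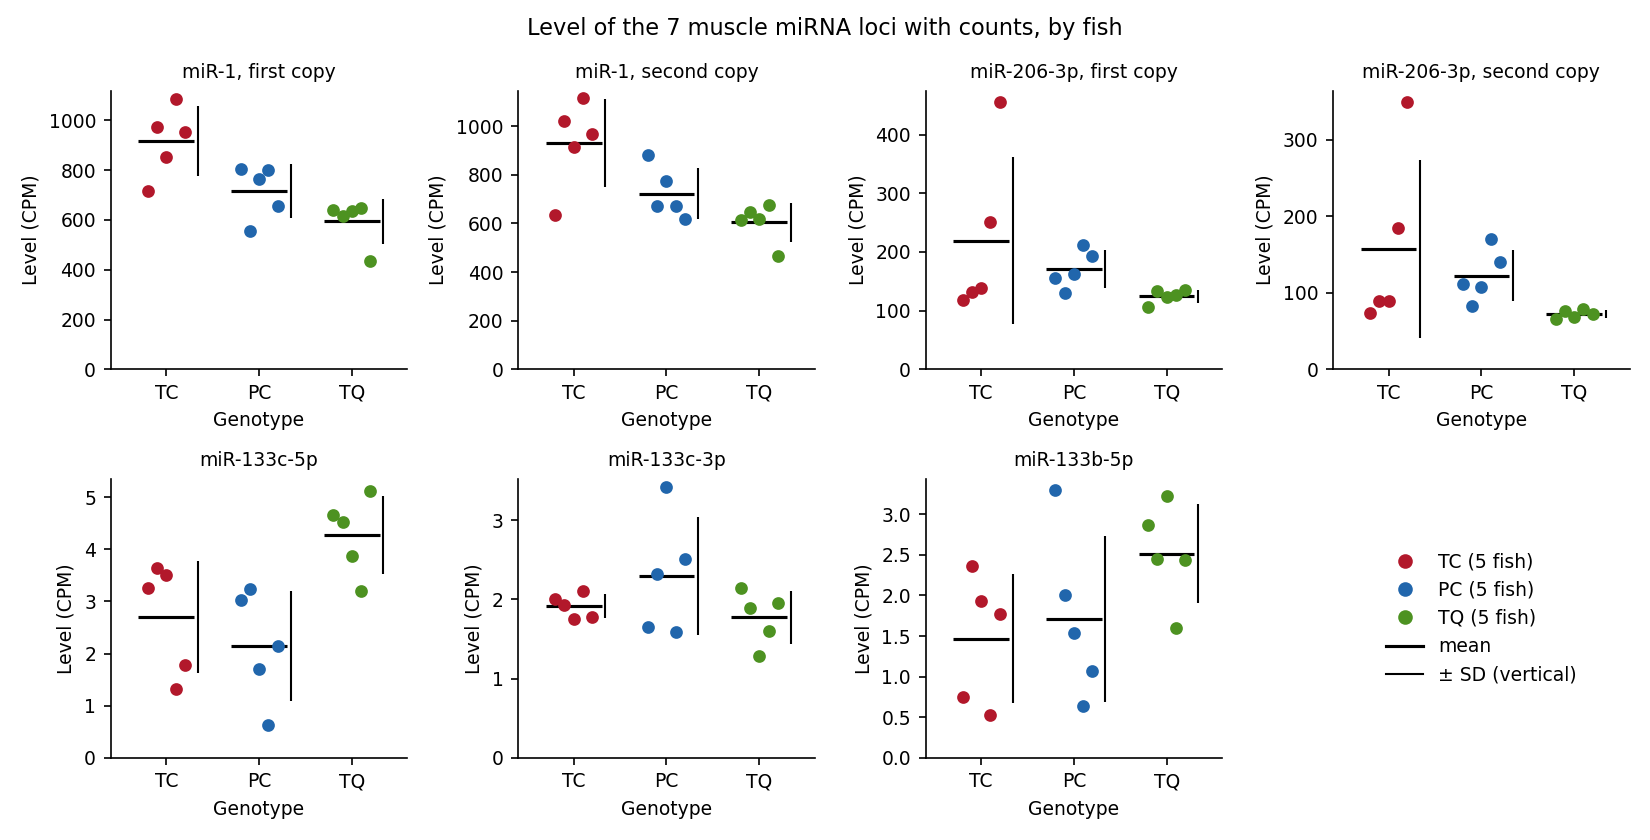
Level (CPM, linear axis from 0) of the 7 muscle miRNA loci with counts in each of 5 TC, 5 PC and 5 TQ fish; horizontal lines are means and vertical bars are ± SD. The first copy of miR-1 separates TC (717 to 1087 CPM) from TQ (436 to 647 CPM), and 1 TC fish reaches 456 and 349 CPM for the copies of miR-206-3p.

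The second copy of miR-206-3p, on the precursor dre-mir-206-2, was the 1 member called, and it was higher in TC than in TQ. Its level in TC was 73.9, 89.7, 88.9, 184 and 349 CPM in replicates 3, 4, 5, 6 and 8. In TQ it was 66.2, 76.6, 68.3, 78.8 and 71.7 CPM in replicates 1, 2, 3, 6 and 8. The groups overlapped in that 4 of 5 TC fish lay above all TQ fish. The means were 157 ± 116 CPM in TC and 72.3 ± 5.37 CPM in TQ (SD, n = 5 each), a log2FC of 1.11 (SE 0.35, edgeR, adjusted p = 0.0301), which is 2.16-fold. The call rested on TC replicate 8, the fish with the highest level and the shallowest library, since without it the log2FC was 0.59 and the adjusted p = 0.0973. It was also lost without TC replicate 6 (log2FC 1.05, adjusted p = 0.0585) and without TQ replicate 1, 2 or 3 (log2FC 1.08, 1.13 and 1.09, adjusted p = 0.0556, 0.0526 and 0.0612). It was lost as well with total counts as library sizes (log2FC 0.73, adjusted p = 0.123) and with size-filtered reads as library sizes (log2FC 0.85, adjusted p = 0.217).

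The first copy of miR-206-3p, on the precursor dre-mir-206-1, averaged 219 ± 143 CPM in TC and 124 ± 11.5 CPM in TQ (SD, n = 5 each). The log2FC was 0.81 (SE 0.30, edgeR, adjusted p = 0.0560), so that it was not called. It was 0.36 without TC replicate 8 (adjusted p = 0.226) and 0.42 with total counts as library sizes (adjusted p = 0.327). It was called with DESeq2 size factors in edgeR (log2FC 0.79, adjusted p = 0.0465) and by DESeq2 without a prior (log2FC 0.79, adjusted p = 0.0267). It was also called without TC replicate 3, 4 or 5 (log2FC 0.97, 0.96 and 0.94, adjusted p = 0.0372, 0.0331 and 0.0358) and without PC replicate 4 (log2FC 0.82, adjusted p = 0.0459). With the counts of both copies summed before the fit, miR-206-3p was called in TC vs. TQ with a log2FC of 0.83 (SE 0.29, adjusted p = 0.0366), and miR-1 had a log2FC of 0.57 (SE 0.13, adjusted p = 0.00709) and was not called. In TC vs. PC the log2FC was 0.36 for the first copy (SE 0.30, adjusted p = 0.548) and 0.35 for the second (SE 0.35, adjusted p = 0.681). Both turned to -0.09 and -0.17 without TC replicate 8.

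In PC vs. TQ the second copy of miR-206-3p averaged 123 ± 33.5 CPM in PC and 72.3 ± 5.37 CPM in TQ (SD, n = 5 each), and all PC fish (83.1 to 170 CPM) lay above all TQ fish (66.2 to 78.8 CPM). The log2FC was 0.76 (SE 0.35, edgeR, adjusted p = 0.131), so that it was not called. The PC and TQ fish alone gave a log2FC of 0.75 and an adjusted p of 0.0189, just past the minimum, and the fit without TC replicate 8 gave 0.76 and an adjusted p of 0.0443. The first copy averaged 170 ± 32.0 CPM in PC and 124 ± 11.5 CPM in TQ, a log2FC of 0.45 (SE 0.30, adjusted p = 0.288).

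miR-133c-5p, the 5′ arm of a miR-133 precursor, had its highest levels in TQ. Its level in TC was 3.26, 3.65, 3.51, 1.31 and 1.77 CPM in replicates 3, 4, 5, 6 and 8. In PC it was 3.02, 3.24, 1.71, 0.633 and 2.15 CPM in replicates 3, 4, 5, 8 and 10. In TQ it was 4.65, 4.53, 3.87, 3.20 and 5.12 CPM in replicates 1, 2, 3, 6 and 8. These levels rest on 2 to 24 counts per fish, TC and TQ overlapped, and 4 of 5 PC fish lay below all TQ fish. The log2FC was 0.33 in TC vs. PC (SE 0.36, edgeR, adjusted p = 0.727) and -0.62 in TC vs. TQ (SE 0.34, adjusted p = 0.189). In PC vs. TQ it was -0.95 (SE 0.35, adjusted p = 0.0706), which was called in the fit without PC replicate 4 (log2FC -1.23, adjusted p = 0.0337).

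The remaining miR-133 arms had similar or lower counts. miR-133c-3p had 4 to 20 counts per fish, with means of 1.91 ± 0.149 CPM in TC, 2.29 ± 0.745 CPM in PC and 1.77 ± 0.335 CPM in TQ (SD, n = 5 each). miR-133b-5p had 2 to 13 counts per fish, with means of 1.47 ± 0.791 CPM in TC, 1.71 ± 1.02 CPM in PC and 2.52 ± 0.605 CPM in TQ (SD, n = 5 each). In a fit without the filter on low counts, neither differed in any contrast (edgeR, smallest adjusted p = 0.277).

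Over the 5 members tested, 0 were called in TC vs. PC, 1 in TC vs. TQ, 0 in PC vs. TQ and 0 in TC vs. the mean of the parents by edgeR. Over all 199 loci, 3.52% were called in TC vs. PC. The share was 14.6% in TC vs. TQ, 10.6% in PC vs. TQ and 3.02% in TC vs. the mean of the parents. At an unadjusted p under 0.05 in edgeR the counts of members were 2, 4, 2 and 4 in the same order of contrasts, beside 29.1%, 36.7%, 34.7% and 30.2% of all 199 loci. DESeq2 without a prior on the log2FC called 0, 2, 0 and 0 members, beside 7.54%, 17.1%, 15.1% and 4.02% of all loci. The median log2FC of the 5 members was 0.36, 0.62, 0.27 and 0.49, against 0.02, 0.03, 0.00 and 0.03 over all loci tested. The 5 members include both copies of miR-1 and both copies of miR-206-3p, which are not independent. Contrasts that share a genotype share its fish and are not independent.

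**Figure D3:**
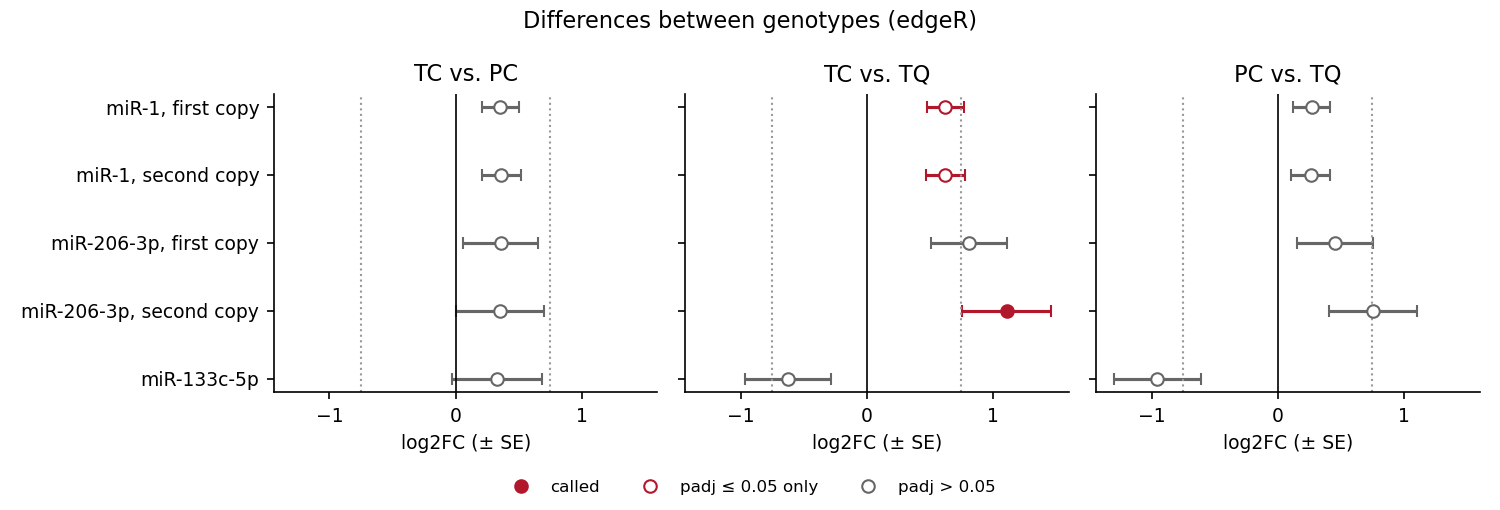
log2FC (± SE, edgeR) of the 5 tested muscle miRNA loci in the 3 contrasts between genotypes; dotted lines mark the minimum of 0.75 in either direction, and filled red points are called. The second copy of miR-206-3p in TC vs. TQ (1.11) is the filled point, and both copies of miR-1 (0.62) pass the limit on the adjusted p only.

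Marker lists of other cell types also differed in these contrasts. In TC vs. TQ the summed level of the smooth muscle list (miR-143 and both arms of miR-145, 3 of 3 names with counts) was 6805 to 8205 CPM in TC and 4759 to 6348 CPM in TQ, without overlap, and TC replicate 8 was the highest. None of its 3 loci was called by edgeR or DESeq2. At an unadjusted p under 0.05 in edgeR there were 2 of 3, beside 36.7% of all 199 loci, and these 2 went in opposite directions. miR-143 had a log2FC of 0.64 (edgeR, adjusted p = 0.00319) and miR-145-5p one of -0.45 (adjusted p = 0.0811). The intestinal list (miR-192 and miR-194a, 2 of 2 with counts) was 23.8 to 35.8 CPM in TC and 14.4 to 19.0 CPM in TQ, also without overlap. In PC vs. TQ the leukocyte list was 484 to 753 CPM in PC and 818 to 1085 CPM in TQ, with 5 of 5 names with counts. The liver miRNA miR-122 was 10.01 to 19.8 CPM in PC and 3.42 to 9.43 CPM in TQ, and the intestinal list was 20.5 to 41.7 CPM in PC and 14.4 to 19.0 CPM in TQ. In TC vs. PC the summed leukocyte list was 754 to 966 CPM in TC and 484 to 753 CPM in PC, without overlap. However, 0 of its 6 loci were called by edgeR or DESeq2, and their median log2FC was -0.05. At an unadjusted p under 0.05 in edgeR there were 2 of 6, beside 29.1% of all 199 loci. The lists for slow fibers (297 to 792 CPM in TC, 290 to 642 in PC and 63.7 to 378 in TQ), epidermis (26.2 to 170 CPM over all fish, miR-203b-3p at 0), nervous tissue (22.2 to 175 CPM) and pancreas (21.5 to 59.1 CPM) overlapped in every contrast, as did the erythroid list.

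Single loci of these lists were called by edgeR also where the sums overlapped. In TC vs. TQ, the contrast of the called miR-206-3p locus, miR-122 (log2FC 1.26), miR-192 (0.86) and the erythroid miR-144-3p (1.48) were higher in TC. The leukocyte miRNAs miR-155 (-1.26) and miR-223 (-1.10) were lower. In each of these 2 cell types another locus went the other way and was not called. These were the erythroid miR-451 (-0.20, edgeR, adjusted p = 0.788) and the leukocyte miR-142a-5p (0.15, adjusted p = 0.471). miR-122 (log2FC 1.17) and miR-192 (0.89) were also higher in PC than in TQ. In that contrast the erythroid miR-451 (-1.61), the leukocyte miRNAs miR-150 (-0.82) and miR-223 (-1.08), and the pancreatic miR-216a (-1.43) and miR-216b (-2.23) were lower. Other loci of these lists went the other way there and were not called. They were the erythroid miR-144-3p (0.15, edgeR, adjusted p = 0.863) and both copies of the pancreatic miR-375 (0.77 and 0.75, adjusted p = 0.143 and 0.156). In TC vs. PC, miR-216a (log2FC 1.79) and miR-216b (2.61) were higher in TC. Both copies of miR-375 were lower in TC (-0.95 and -0.94, edgeR, adjusted p = 0.0968 and 0.101) and were not called by edgeR. The erythroid miR-451 (1.41, edgeR, adjusted p = 0.0728) and miR-144-3p (1.33, adjusted p = 0.0781) were higher in TC than in PC and not called by edgeR. DESeq2 called both, with and without a prior, beside 7.54% of all 199 loci without a prior. In TC vs. the mean of the parents, miR-216a (log2FC 1.08), miR-216b (1.49) and miR-144-3p (1.41) were higher. The copies of miR-375 were lower there (-0.56 and -0.57, edgeR, adjusted p = 0.224 for both) and were not called by edgeR. The part of these lists in the differences of the muscle miRNAs was not tested.

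The ratio of miR-206-3p to miR-1 does not depend on the scaling of libraries, and no difference between genotypes passed the test. miR-1 had more counts than miR-206-3p in every fish. The ratio of counts, copies summed, was 0.419 in TC replicate 8 and 0.111 to 0.262 in the other 14 fish. The log2 ratio averaged -2.51 ± 0.763 in TC, -2.32 ± 0.347 in PC and -2.60 ± 0.281 in TQ (SD, n = 5 each). Exact permutation tests, two-sided, gave p = 0.643 for TC vs. PC, p = 0.841 for TC vs. TQ and p = 0.175 for PC vs. TQ, before adjustment over the 12 tests of ratios and shares (adjusted p = 0.960, 0.960 and 0.419).

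The copies of a mature sequence differ only in the bases around it. The place of each copy on its precursor is shown with 4 bases on either side and the mature sequence in capitals. A read that holds the whole mature sequence and nothing more fits both copies equally, and reads of 17 to 26 bases were kept.
dre-mir-1-1, bases 58 to 87: gctaTGGAATGTAAAGAAGTATGTATccca
dre-mir-1-2, bases 50 to 79: gctaTGGAATGTAAAGAAGTATGTATtctt
dre-mir-206-1, bases 55 to 84: gttaTGGAATGTAAGGAAGTGTGTGGtttc
dre-mir-206-2, bases 60 to 89: tctaTGGAATGTAAGGAAGTGTGTGGcttc

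The miR-1 precursors share 5 bases before the mature sequence and 0 after it, and the miR-206 precursors share 2 before and 0 after. How reads that fit both copies were assigned is not given in the sources used here, so the level of a single copy is uncertain.

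The counts of miR-1 were split about evenly between its copies. The first copy held 49.4% of the counts over all fish and 45.4 to 54.3% by fish, and the 95% Wilson interval, which covers counting error only, left out 50% in 8 of 15 fish. The share was 49.8% ± 1.89 in TC, 49.7% ± 3.44 in PC and 49.6% ± 1.25 in TQ (SD, n = 5 each), with no difference that passed the exact permutation test (adjusted p = 0.960 in each contrast).

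The counts of miR-206-3p were more often on the first copy, and less so in TC and PC than in TQ. The first copy held 59.8% of the counts over all fish, and the interval lay above 50% in all 15 fish. The share in TC was 61.6, 59.6, 60.8, 57.6 and 56.6% in replicates 3, 4, 5, 6 and 8. In PC it was 58.3, 61.2, 59.99, 55.5 and 57.8% in replicates 3, 4, 5, 8 and 10. In TQ it was 61.5, 63.4, 64.3, 61.6 and 65.2% in replicates 1, 2, 3, 6 and 8. All PC fish lay below all TQ fish, while TC and TQ overlapped by 1 TC fish. Reads of all genotypes were counted on Danio rerio precursors, and pacu and tambaqui sequences were not examined. Genotype differences in the share cannot be told apart from differences in how their own sequences match the bases around the copies. The same holds for a difference in the level of a single copy, such as the called one.

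The mean share of the first copy was 59.2% ± 2.09 in TC, 58.5% ± 2.18 in PC and 63.2% ± 1.65 in TQ (SD, n = 5 each). The difference was -3.95 percentage points in TC vs. TQ (exact permutation test, two-sided, p = 0.0159, adjusted p = 0.0476). It was -4.65 points in PC vs. TQ (exact permutation test, p = 0.00794, adjusted p = 0.0476). With 252 arrangements of 5 fish against 5, p = 0.00794 is the smallest that this exact test can give, and 0.0476 is the smallest adjusted value it gave here. The difference of 0.71 points in TC vs. PC did not pass the exact test (p = 0.611, adjusted p = 0.960). The difference in TC vs. TQ did not pass without TC replicate 6 (-3.54 points, adjusted p = 0.119) or TC replicate 8 (-3.29 points, adjusted p = 0.119). Leaving out any one TQ fish gave adjusted p-values of 0.0952 to 0.127 in both contrasts, with differences of -4.38 to -3.44 points in TC vs. TQ and -5.09 to -4.15 points in PC vs. TQ. With 1 fish fewer the exact test has fewer arrangements, so its p can rise with little change of the difference.

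**Figure D4:**
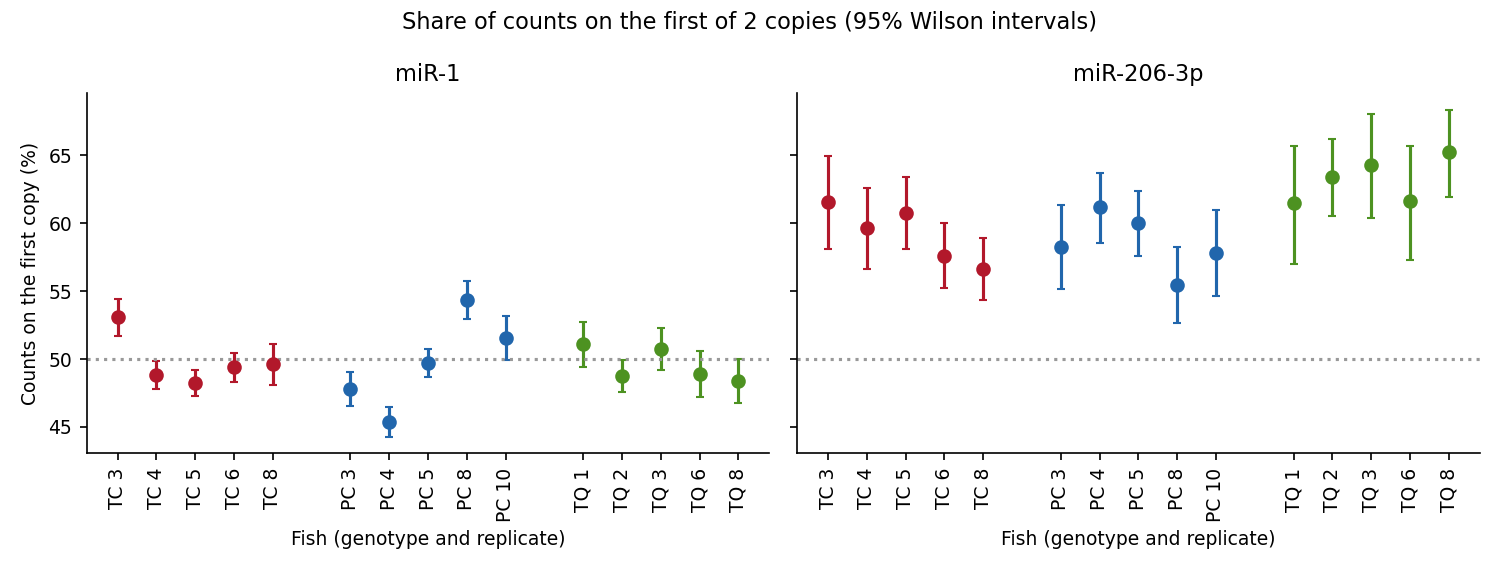
Share of the counts of miR-1 and of miR-206-3p that were on the first of 2 copies (%), by fish, with 95% Wilson intervals; the dotted line marks 50% and the axis does not start at 0. miR-1 scatters between 45.4 and 54.3%, and miR-206-3p lies at 55.5 to 61.6% in TC and PC fish and at 61.5 to 65.2% in TQ fish.

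The arms of the miR-133c precursor were counted at similar levels, with more counts on the 5′ arm in TQ. miR-133c-3p differs from miR-133b-3p by 1 base, and whether reads of other miR-133 names were counted at it was not tested. Summed over 5 fish, miR-133c-5p and miR-133c-3p had 59 and 39 counts in TC, 50 and 53 in PC, and 78 and 32 in TQ, ratios of 1.51 in TC, 0.943 in PC and 2.44 in TQ. With 0.5 added to each count, the log2 ratio of the arms averaged 0.38 ± 0.678 in TC, -0.20 ± 0.861 in PC and 1.20 ± 0.221 in TQ (SD, n = 5 each).

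All PC fish (-1.14 to 0.82) lay below all TQ fish (0.92 to 1.47), with a difference of -1.40 (exact permutation test, two-sided, p = 0.00794, adjusted p = 0.0476). In TC vs. TQ the difference was -0.82 (exact permutation test, p = 0.0159, adjusted p = 0.0476), and with 1 added to each count in place of 0.5 it was -0.77 and did not pass (adjusted p = 0.0714). It also did not pass without TC replicate 6 (-0.57, adjusted p = 0.0952) or TC replicate 8 (-0.73, adjusted p = 0.0635). Leaving out any one TQ fish gave differences of -0.90 to -0.76 in TC vs. TQ (adjusted p = 0.0952 to 0.167) and of -1.48 to -1.34 in PC vs. TQ (adjusted p = 0.0952 to 0.127). Here too the exact test has fewer arrangements with 1 fish fewer. The difference of 0.58 in TC vs. PC did not pass (exact permutation test, p = 0.254, adjusted p = 0.508).

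**Figure D5:**
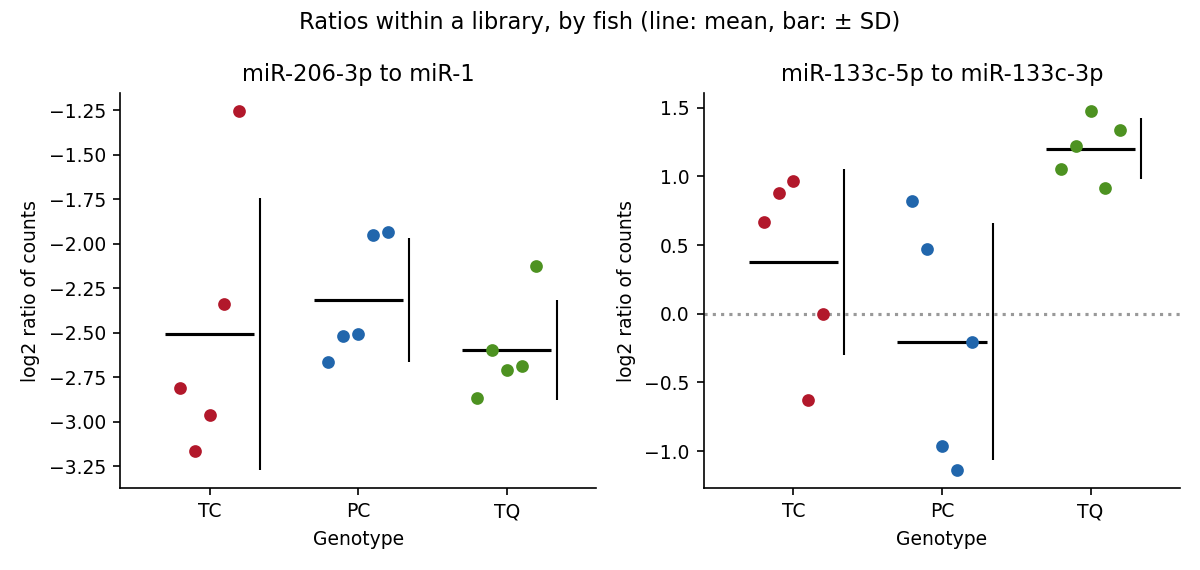
log2 ratio of counts of miR-206-3p to miR-1 (copies summed) and of miR-133c-5p to miR-133c-3p (0.5 added to each count) in each of 5 TC, 5 PC and 5 TQ fish; lines are means and bars are ± SD. The first ratio overlaps in all genotypes, with 1 TC fish at -1.26, and the second separates PC (-1.14 to 0.82) from TQ (0.92 to 1.47).

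Across the 15 fish, relations between the levels of members passed the test only with TMM scaling. Levels are log2 of CPM with 0.5 added, copies summed, and all share the scaling factor of their library. miR-206-3p and miR-133c-5p were negatively related (r = -0.729, permutation p = 0.00448, adjusted over 3 relations p = 0.0134, rho = -0.807, permutation p = 0.00043), and r was -0.869 without the 2 fish farthest from the median of miR-206-3p. Within genotypes, as deviations from their means, r was -0.673 (permutation p = 0.0123, adjusted p = 0.0370). With total counts as library sizes r was -0.262, and with size-filtered reads it was -0.177, both chosen after seeing the data.

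miR-1 and miR-206-3p were positively related (r = 0.564, permutation p = 0.0283, adjusted p = 0.0424, rho = 0.664, permutation p = 0.00771), with r = 0.504 without the 2 fish farthest from the median. Within genotypes r was 0.340 (permutation p = 0.358). miR-1 and miR-133c-5p had r = -0.486 (permutation p = 0.0664, adjusted p = 0.0664) and rho = -0.579 (permutation p = 0.0255), and r was -0.229 without the 2 farthest fish and -0.389 within genotypes (permutation p = 0.181). r turned to 0.238 with total counts and to 0.415 with size-filtered reads as library sizes.

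Among 149 names that passed the filter, those whose level over the 15 fish was most like miR-1 were miR-122 (r = 0.866), miR-143 (r = 0.865) and miR-101a (r = 0.839). Those most like miR-206-3p were miR-146a (r = 0.768), miR-31 (r = 0.715) and miR-30d (r = 0.709). Those most like miR-133c-5p were miR-210-3p (r = 0.703), miR-210-5p (r = 0.683) and miR-181a-3-3p (r = 0.671). The median r over all names was 0.01, 0.05 and 0.01 for the 3 members in this order. These are descriptions over fish that share library scaling and genotype.

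Of 18 other names linked to muscle growth or fiber type, 12 had counts, and 18 of their loci were tested. The names at 0 were miR-181b-5p, miR-26a-5p, miR-29b, miR-23a-3p, miR-24 and miR-125b-5p. These zeros are not given as limits on their levels either. In TC vs. TQ, where 14.6% of all 199 loci were called, 3 loci of this list were higher and 2 lower by edgeR. miR-499-5p and miR-499-3p, which are encoded in a myosin gene of slow fibers, were higher (log2FC 1.87 and 1.56, adjusted p = 0.00768 and 0.0151), with miR-499-5p at 572 ± 191 CPM in TC, 477 ± 139 CPM in PC and 157 ± 119 CPM in TQ (SD, n = 5 each). miR-27b-3p, known to lower Pax3 in mouse muscle, was higher in TC vs. TQ, with 12625 ± 984 CPM in TC and 7092 ± 990 CPM in TQ (log2FC 0.83, adjusted p = 0.00631). miR-221-3p, known to fall when myoblasts differentiate, was lower, with 318 ± 44.4 CPM in TC and 569 ± 43.8 CPM in TQ (log2FC -0.84, adjusted p = 0.000784). miR-29a was lower, with 16.99 ± 1.67 CPM in TC and 30.8 ± 4.55 CPM in TQ (log2FC -0.86, adjusted p = 0.0151).

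In PC vs. TQ, where 10.6% of all 199 loci were called, 3 loci of this list were called by edgeR, all higher. They were miR-499-5p (log2FC 1.60, adjusted p = 0.0143), miR-499-3p (log2FC 1.47, adjusted p = 0.0312) and miR-489, a miRNA of quiescent satellite cells in mouse, with 78.8 ± 13.2 CPM in PC and 35.7 ± 7.41 CPM in TQ (SD, n = 5 each; log2FC 1.14, adjusted p = 0.000865). In TC vs. PC, 0 of 18 loci were called by edgeR or DESeq2, beside 3.52% of all 199 loci by edgeR. At an unadjusted p under 0.05 in edgeR there were 4 of 18, beside 29.1% of all loci. In TC vs. the mean of the parents, 0 of 18 were called by edgeR, beside 3.02% of all loci. There were 6 of 18 at an unadjusted p under 0.05 in edgeR, beside 30.2% of all loci. DESeq2 called 1 of 18, beside 4.02% of all loci without a prior. The median log2FC of the 18 loci was -0.15 in TC vs. PC, -0.22 in TC vs. TQ, -0.07 in PC vs. TQ and -0.16 in TC vs. the mean of the parents, against 0.36, 0.62, 0.27 and 0.49 for the 5 tested loci of miR-1, miR-206-3p and miR-133c-5p. The 18 loci include copies of miR-181a-5p (log2FC -0.22 for each in TC vs. TQ) and of miR-128-3p. Copies of 1 name had nearly the same values and are not independent, so the medians of both sets lean on few miRNAs.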

How the data were processed

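Small RNA from fast muscle of 15 fish, 5 each of TC, PC and TQ, was sequenced in 50 cycles after TRIZOL extraction. The authors deposited raw counts per mature locus without normalization. To make them, adapters were clipped with Fastx-toolkit, reads of 17 to 26 bases that passed a quality filter were aligned with Hisat2 to Danio rerio precursors of miRBase, and featureCounts counted them at the places GMAP gave each mature sequence. Versions of featureCounts and Hisat2 are not given, and how reads that fit several places were handled is not given in the sources used here. A normalized signal was deposited as well, made by dividing the counts of a fish by its DESeq2 size factor. It served only as a check and for the filter on low counts.

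Counts of all 595 loci were analysed, and the 199 whose normalized count averaged 10 or more were tested by the quasi-likelihood test of edgeR 4.0.16 (R 4.3.3, limma 3.58.1) with TMM scaling, all fish in 1 fit and Benjamini-Hochberg adjustment over the 199. Loci with an adjusted p up to 0.05 and a log2FC of 0.75 or more in either direction were called, and adjusted p-values of loci come from this test unless another tool is named. CPM levels are counts scaled to 1000000 of the TMM-scaled library size, with TMM factors of 0.621 to 1.43. Shares and ratios within a library were tested by exact two-sided permutation tests, adjusted over 12 tests, and relations between members by 100000 permutations. Copy shares have 95% Wilson intervals, and the limit of a count of 0 is 3 counts; both cover counting error only, as PCR copies were not distinguished. Nothing in the labels gives tanks or broods, so p-values measure the spread between these fish. Total counts were 2422820 to 5669084 per fish. Tables were made in Python 3.11.15 with numpy 2.4.6, pandas 2.3.3 and scipy 1.17.1, and plots with matplotlib 3.10.9.

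On simulated counts with 60 of 199 loci changed by a log2FC of 1.5, the test recovered 60 in TC vs. PC, 58 in TC vs. TQ and 59 in PC vs. TQ, with 3, 1 and 0 false calls. The tested members had smaller log2FC values in the main fit, up to 1.11. Recovery at those sizes, or with an outlying fish such as TC replicate 8, was not simulated.

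The members, marker lists and tests were chosen with earlier results of these data known. All members with counts were named with values, together with the 3 names whose levels had the highest r with miR-1, miR-206-3p and miR-133c-5p and the called loci of a list of other muscle-linked miRNAs. Summed levels are given for marker lists of slow fibers, erythroid cells, leukocytes, endothelium, smooth muscle, epidermis, liver, nervous tissue, intestine and pancreas. Alternatives were DESeq2 1.42.0 with and without a prior, its size factors, library sizes from total counts or from size-filtered reads, no filter, both genotypes of a contrast alone, copies summed, a replicate block, other log2FC minimums, other pseudocounts and leaving out each fish. The library sizes for relations between members were added after seeing the data.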

Additional observations from a re-analysis of the deposited data

Results flagged for a closer look

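In 39 groups of 5 fish, the highest or lowest fish was checked for a gap to its nearest neighbor of more than 0.71 of the range of the group, which chance gives in about 1 of 20 groups. The level of the first copy of miR-1 in TQ replicate 8, 436 CPM, lay below the 616 to 647 CPM of the other 4 TQ fish. The level of miR-1 with both copies summed was 901 CPM in the same fish, against 1253 to 1322 CPM in the others. The share of miR-1 counts on the first copy was 53.1% in TC replicate 3, against 48.2 to 49.6% in the other 4 TC fish.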

How the results depend on the processing

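Of the 5 tested loci, 1 was called in TC vs. TQ, and 2 with DESeq2 size factors, with DESeq2 without a prior, and with the replicate number as a block, against 0 with total counts or size-filtered reads as library sizes, 3 with no log2FC minimum, and 0 to 2 when 1 fish was left out. In PC vs. TQ the count of 0 became 1 with both genotypes alone and was 0 to 1 with 1 fish left out (1 without PC replicate 4 or TC replicate 8), and in TC vs. the mean of the parents it became 2 with no minimum. The count in TC vs. PC was 0 under all 11 alternatives and without any 1 fish. Total counts as library sizes moved the median of all loci by -0.12 in TC vs. PC, -0.41 in TC vs. TQ and -0.25 in PC vs. TQ, and relative to that median the log2FC of miR-1 (first copy) in TC vs. TQ was 0.65, against 0.59 with TMM. The labels give no pairing for the fish numbers shared between genotypes, and the numbers were not treated as pairs in the main fit. Deviations of same-numbered fish correlated from -0.486 to 0.267, and 2 of 12 fish were most like their own number. With the replicate block the first copy of miR-1 was called in TC vs. TQ (log2FC 0.76, adjusted p = 0.0450). The second copy there (0.69, adjusted p = 0.0595) and both copies in TC vs. the mean of the parents (0.51 and 0.47, adjusted p = 0.0836 and 0.113) did not pass the limit on p.

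With 1 fish left out, the log2FC in TC vs. PC ranged from -0.0929 to 0.530 for the first and from -0.17 to 0.54 for the second copy of miR-206-3p, and that of miR-133c-5p in TC vs. the mean of the parents from -0.259 to 0.0285. The share of miR-1 counts on the first copy differed by -1.02 to 1.23 points in TC vs. PC, -0.55 to 0.66 in TC vs. TQ and -0.96 to 1.28 in PC vs. TQ. The share of miR-206-3p counts differed by -0.0589 to 1.36 points in TC vs. PC, -4.53 to -3.29 in TC vs. TQ and -5.31 to -3.89 in PC vs. TQ, and the log2 ratio of the miR-133c arms by -0.97 to -0.57 in TC vs. TQ and -1.66 to -1.17 in PC vs. TQ. Adjusted p rose above 0.05 without TC replicate 6 or 8 or any one TQ fish in TC vs. TQ, and without any one TQ fish in PC vs. TQ, for both the share of miR-206-3p and the miR-133c ratio. The exact test has fewer arrangements with 1 fish fewer, so its p can rise with little change of the difference. The log2 ratio of miR-206-3p to miR-1 in TC vs. TQ ranged from -0.22 to 0.25, and was -0.0104 with first copies only. With a pseudocount of 1 the miR-133c ratio in TC vs. TQ was -0.77. With total counts and with size-filtered reads as library sizes, r was 0.466 and 0.588 for miR-1 with miR-206-3p, 0.238 and 0.415 for miR-1 with miR-133c-5p, and -0.262 and -0.177 for miR-206-3p with miR-133c-5p. The causes were not tested. Counts of 2 to 24 per fish limit miR-133c.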
